A study of Neurospora crassa with 6 samples.

Results

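Messenger RNA was sequenced from mycelium of the filamentous fungus Neurospora crassa, and the genes described here are 52 neighbours on the right part of linkage group III, out of 9757 genes in the table. They were chosen by position, as all genes on the chromosome of NCU08235 whose smallest counted start lies from 4.69 to 4.87 Mb in the coordinates of the deposited table, whose genome build is not given in the sources used here. A block of 32 of them, from NCU08235 (4735926 to 4738698) to NCU08263 (4818973 to 4820221), had been picked out because its transcripts were higher in cac-1 suz-12 than in cac-1. That difference between the strains chose the genes. It is described here, without a printed p-value for any of them. Calls, defined below, rest on adjusted p-values and serve as description only, and the difference supports nothing further. Another 10 genes lie to the left of the block and 10 to its right.

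The strains were labelled as a knockout of both cac-1 and suz-12 and as a knockout of cac-1, with 3 libraries each. By label both strains thus lack cac-1, and they differ in suz-12. Mycelium came from overnight cultures in a minimal medium, Vogel's, that held 1.5% sucrose. RNA was taken from bulk mycelium, so fewer cells with a transcript and less of it per cell cannot be told apart. The labels do not say whether replicates came from separate cultures, so the spread between them may be technical. Wild type was not analysed here, so the values do not show how either strain compares with one that has cac-1.

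CAC-1 belongs to chromatin assembly factor, which places histones on newly copied DNA. SUZ-12 is part of an enzyme, Polycomb repressive complex, that methylates histone H3. In this fungus the methylated histone covers long stretches of neighbouring genes, most of which are silent in growing mycelium, and such stretches are called facultative heterochromatin. Neither the table nor RefSeq gives a gene name other than the locus number for any of the 52 genes, so none is given a function here.

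Libraries held 18993719 to 28327383 counts in cac-1 suz-12 and 7989915 to 25315143 in cac-1. No count fell on cac-1 in any of the 6 libraries. NCU05460 is taken here as suz-12, a pairing that the files do not give, and it had 54, 70 and 55 counts in cac-1 suz-12, against 74, 207 and 197 in cac-1. Its level was lower in cac-1 suz-12, at 2.68 ± 0.4997 CPM against 8.38 ± 0.918 CPM in cac-1 (SD, n = 3 each), and reads remained in the libraries labelled cac-1 suz-12. At that locus the counts therefore do not show a full loss of the transcript. The mating-type gene matA-1 had 1193, 1387 and 1000 counts in cac-1 suz-12 and 0 in every cac-1 library, so the strains differed at the mating-type locus as well. A list of 6 genes of conidia, the asexual spores, summed to 155 to 192 counts per 1000000 counts (CPM) in cac-1 suz-12 and 196 to 360 CPM in cac-1. On a list of genes of sexual tissue, 3 of 4 were found, and they summed to 1004 to 1734 CPM in cac-1 suz-12 and 1488 to 3031 CPM in cac-1. By the test defined below, 1 conidia gene was called higher and 1 lower in cac-1 suz-12, and of the sexual-tissue genes 0 higher and 1 lower. No gene of either list was at 0, and the part of these lists in the results was not tested. Library numbers in the labels run in separate consecutive sets for the strains, so an effect of batch cannot be told apart from the strain.

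Levels are CPM, scaled by the trimmed mean of M-values (TMM). A gene was called when edgeR's quasi-likelihood test, fitted over the whole table, gave a Benjamini-Hochberg adjusted p under 0.05. In the block 12 of 32 genes had enough counts to be tested. Each of these 12 was called higher in cac-1 suz-12, with a fitted change of 2-fold or more, and none was called lower. Of all genes tested, 28.1% were called in either direction, 16.1% higher and 11.9% lower, and 8.46% were called higher and 2.89% lower with a change of 2-fold or more. The filter asks for enough counts in 3 libraries, and all of these genes but NCU08244 and NCU08261 met it only through their cac-1 suz-12 libraries. A filter passed in this way favours genes that are higher in cac-1 suz-12. The block was also chosen for this contrast, so nothing is read from the count. The other 20 genes of the block were too low to be tested.

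Summed over its 32 genes, the block stood at 185, 110.3 and 195 CPM in cac-1 suz-12, against 5.27, 4.41 and 4.68 CPM in cac-1. The means were 163 ± 46.3 CPM in cac-1 suz-12 and 4.79 ± 0.441 CPM in cac-1 (SD, n = 3 each), a ratio of 34.2. A single gene, NCU08261, made up 81.0%, 72.0% and 80.04% of the summed level in the cac-1 suz-12 libraries and 35.6%, 38.7% and 31.7% in the cac-1 libraries. The other 31 genes together stood at 35.2, 30.9 and 38.9 CPM in cac-1 suz-12, against 3.40, 2.701 and 3.20 CPM in cac-1, a ratio of 11.3. The strains did not overlap in either sum.

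**Figure D1:**
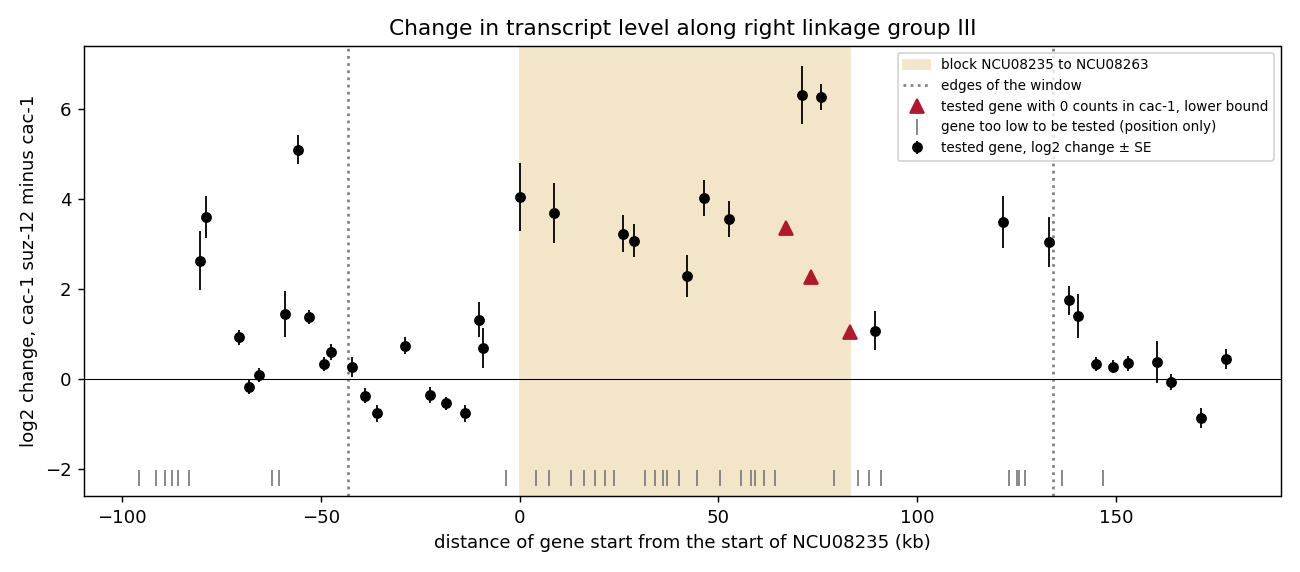
The log2 change of each tested gene (cac-1 suz-12 minus cac-1, points with SE; triangles are lower bounds for genes with 0 counts in cac-1) is plotted against its distance in kb from the start of NCU08235, from 50 kb before the window to 50 kb after it; grey ticks mark genes too low to be tested. Tested genes inside the shaded block lie from 2.29 upwards, apart from the bounds of NCU16704 and NCU08263, while most genes of the left flank lie near or below 0.

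NCU08261 (4811606 to 4812655, plus strand, 1 counted interval of 1050 bp) was the most abundant gene of the block in both strains. It had 3388, 2318 and 2630 counts in cac-1 suz-12, against 16, 48 and 32 counts in cac-1. These are 150.1, 79.4 and 156 CPM in cac-1 suz-12 and 1.87, 1.71 and 1.48 CPM in cac-1. Replicate 2 was the lowest of the cac-1 suz-12 libraries, and it lay far above every cac-1 library. The ratio of the means was 76.1, and the fitted log2 change was 6.27 (SE 0.289). Per kb of counted length its level ranked at percentile 89.2 of all genes in cac-1 suz-12 and at percentile 15.9 in cac-1.

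The genes before NCU08261 were nearly silent in cac-1. NCU08259 (4802863 to 4804759, minus strand, 4 intervals) stood at 3.15, 4.76 and 2.845 CPM in cac-1 suz-12 and had 0 counts in every cac-1 library. Its mean level of 3.58 ± 1.03 CPM (SD, n = 3) in cac-1 suz-12 was at least 10.2-fold higher, taking as the floor 3 counts in the shallowest cac-1 library, or 0.351 CPM. NCU16704 (4809123 to 4810856, plus strand) had 36, 43 and 34 counts in cac-1 suz-12 and likewise 0 in every cac-1 library, and was at least 4.82-fold higher. Between them NCU08260 (4807036 to 4808227, plus strand) had 80, 90 and 48 counts in cac-1 suz-12 and 0, 2 and 0 in cac-1. Its pooled ratio was 92.5, with an exact 95% interval from 25.3 to 769 that covers counting error only. Both of its cac-1 counts came from replicate 2, and without that library none is left and the ratio has no finite estimate. With NCU08261 these make 4 tested genes in a row, and in every one of them each cac-1 suz-12 library exceeded each cac-1 library. NCU08259 and NCU08260 point away from each other across 2276 bp.

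The middle of the block held 5 tested genes that kept a few counts in every cac-1 library. NCU08243 (4761941 to 4764324) and NCU08244 (4764577 to 4766164) follow each other on the minus strand, 252 bp apart. NCU08243 had 103, 108 and 95 counts in cac-1 suz-12, against 1, 12 and 16 in cac-1. NCU08244 had 106, 106 and 73 counts in cac-1 suz-12, against 6, 12 and 10 in cac-1. NCU08243 thus averaged 4.63 ± 0.968 CPM in cac-1 suz-12 and 0.428 ± 0.312 CPM in cac-1, and NCU08244 averaged 4.22 ± 0.541 CPM in cac-1 suz-12 and 0.531 ± 0.15 CPM in cac-1 (SD, n = 3 each). The log2 changes of the pair were 3.23 (SE 0.414) and 3.08 (SE 0.367), closer to each other than either standard error.

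NCU08252 (4782348 to 4783813, plus strand) stood at 4.70, 4.28 and 6.58 CPM in cac-1 suz-12, against 0.469, 0.355 and 0.185 CPM in cac-1. NCU08254 (4788658 to 4789684, plus strand) stood at 5.01, 3.22 and 4.98 CPM in cac-1 suz-12, against 0.234, 0.498 and 0.278 CPM in cac-1. The libraries of the strains were apart in both genes, and the ratios of the means were 15.4 and 13.1. RefSeq places a non-coding RNA gene, NCU14123, over part of NCU08254, so reads of the overlap may come from either. NCU08250 (4778023 to 4779106, plus strand) showed the smallest fitted change of the block's tested genes, 2.29 on the log2 scale (SE 0.473), with 1.61 ± 0.208 CPM in cac-1 suz-12 and 0.328 ± 0.0436 CPM in cac-1 (SD, n = 3 each).

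At the left end of the block NCU08235 (plus strand, 4 intervals) had 42, 34 and 26 counts in cac-1 suz-12 and 0, 0 and 5 in cac-1. All of its cac-1 counts thus came from replicate 3, and its log2 change, 4.04 (SE 0.758) with all libraries, has no finite estimate from the counts without that one. NCU08238 (4744493 to 4745995, minus strand) had 42, 40 and 14 counts in cac-1 suz-12 and 0, 4 and 2 in cac-1, a log2 change of 3.69 (SE 0.666). At the right end NCU08263 (plus strand, 3 intervals) had 12, 20 and 16 counts in cac-1 suz-12 and 0 in every cac-1 library, and was at least 2.05-fold higher. The end genes were thus far lower than NCU08261, and NCU08263 was just above the filter.

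**Figure D2:**
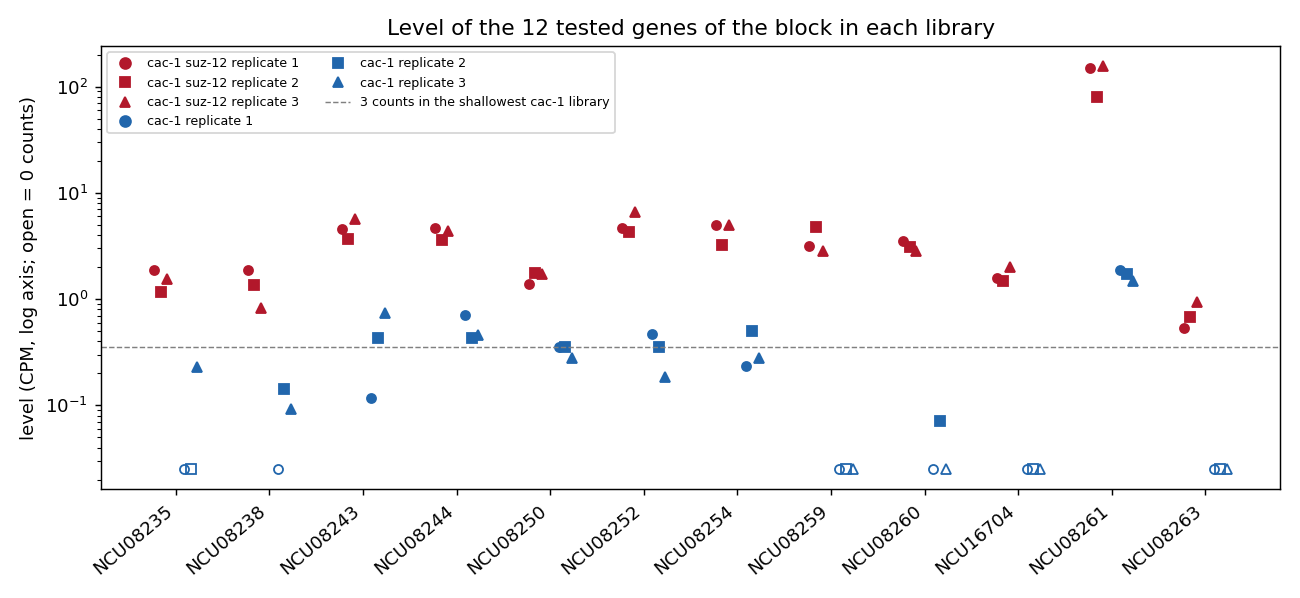
The level of each tested gene of the block is plotted in CPM on a log axis for every library, with cac-1 suz-12 in red to the left of cac-1 in blue and open symbols for 0 counts; the dashed line is 0.351 CPM, or 3 counts in the shallowest cac-1 library. In all 12 genes the cac-1 suz-12 libraries lie above the cac-1 libraries, and NCU08261 stands apart from the other 11.

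Across the 12 tested genes the coefficient of variation over the cac-1 suz-12 libraries ran from 11.3% in NCU08260 to 38.1% in NCU08238, with a median of 23.1%. Replicate 2 was the lowest cac-1 suz-12 library in 7 of the 12 genes and the highest in 2, NCU08250 and NCU08259. The median log2 change of the 12 genes was 4.03, against -0.000895 over all 9148 genes tested in the table. With the genes that had no count in cac-1 set at their lower bounds, the median was 3.45.

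The 20 genes of the block that were not tested had at most 14 counts in any cac-1 suz-12 library and at most 8 in any cac-1 library. Together they stood at 2.30, 1.78 and 4.62 CPM in cac-1 suz-12, against 1.52, 0.427 and 0.927 CPM in cac-1. The gap between these sums is narrow beside that of the tested genes, since the lowest cac-1 suz-12 library and the highest cac-1 library differ by less than the SD of the cac-1 suz-12 sums, 1.51 CPM. Of the 20 genes, 10 had no count in any cac-1 library. The strains did not overlap in 4 of the 20, NCU08236, NCU08237, NCU16702 and NCU08253, each of which was higher in cac-1 suz-12. NCU16702 (4759637 to 4760743, plus strand), which had the most counts of the first 3, had 4, 6 and 7 counts in cac-1 suz-12 and 0 in every cac-1 library. NCU08253 (4786333 to 4787613, minus strand) had 10, 12 and 10 counts in cac-1 suz-12 and 0, 2 and 2 in cac-1. With the tested genes, 16 of the 32 showed higher levels without overlap and none showed lower levels. Over the whole table, 21.9% of genes were higher without overlap and 18.8% lower.

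Some stretches of the block stayed near 0 in both strains. NCU08251 (4780591 to 4781498) had 0 counts in all 6 libraries. NCU08248 had 0 counts in cac-1 suz-12 and 0, 4 and 2 in cac-1. In the 5 genes from NCU08245 to NCU08249 no library held more than 4 counts, and NCU08239 had 0, 2 and 0 counts in cac-1 suz-12, against 4, 0 and 1 in cac-1. In 10-kb bins counted from the start of NCU08235, the summed level was higher in cac-1 suz-12 in 6 of the 8 bins that lie wholly in the block. The bin from 10 to 20 kb, which holds NCU08239, NCU08240 and NCU08241, stood at 0.435 ± 0.358 CPM in cac-1 suz-12 and 0.491 ± 0.434 CPM in cac-1 (SD, n = 3 each). The bin from 30 to 40 kb stood at 0.105 ± 0.0929 CPM in cac-1 suz-12 and 0.109 ± 0.097 CPM in cac-1. These values are too low to show whether such genes differed between the strains.

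A further group had uneven counts over the libraries. NCU08241 had 0, 8 and 14 counts in cac-1 suz-12, against 4, 2 and 8 in cac-1, and NCU08257 had 7, 2 and 13 in cac-1 suz-12, against 3, 0 and 0 in cac-1. NCU08242 had 4, 6 and 0 counts in cac-1 suz-12 and NCU08262 had 8, 6 and 0, with 0 in every cac-1 library. NCU08255 and NCU08256, which are neighbours, had 8 and 6 counts in cac-1 suz-12 replicate 3 and 0 in the 5 other libraries. In each of these 6 genes the strains overlapped, and replicate 3 of cac-1 suz-12 held the most counts in 4 of them. NCU08240, NCU08258 and NCU16703 had at most 6 counts in any library. NCU08236 had 4, 2 and 8 counts and NCU08237 had 2, 4 and 6 in cac-1 suz-12, with 0 in every cac-1 library. The pattern within the block was thus uneven, with tested genes between others that had few counts in any library.

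**Figure D3:**
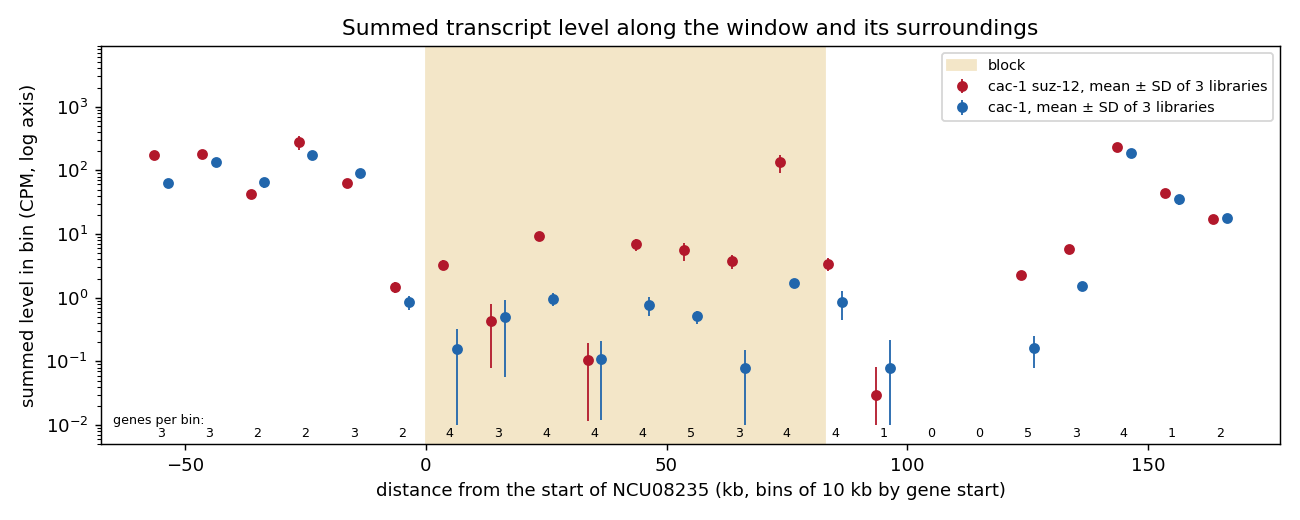
The summed level of all genes that start in each 10-kb bin is plotted in CPM on a log axis against the distance from the start of NCU08235, as mean ± SD of 3 libraries, with the number of genes per bin at the bottom; lower bars end at 0.01, and bins with no gene have no point. The bin that ends 10 kb before the block stands at 62.4 CPM in cac-1 suz-12 and 92.1 CPM in cac-1, the bin next to the block at 1.49 CPM and 0.854 CPM in the same strains, and the bin with NCU08261 is the highest of the block in both strains.

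Levels were compared between genes as CPM per kb of counted length. In cac-1 suz-12 NCU08261 stood at 122.3 ± 40.6 CPM per kb (SD, n = 3), and no library overlapped with the next gene in the order, NCU08254, at 5.50 ± 1.28 CPM per kb. NCU08244, NCU08252, NCU08259, NCU08260, NCU08243 and NCU16704 followed at means from 3.75 down to 2.01 CPM per kb, and each overlapped with its neighbour in this order. NCU08250 at 1.60 CPM per kb and NCU08238 at 0.901 CPM per kb were each separated from the gene above them. From NCU08238 down to the last gene every neighbouring pair overlapped, so the order among the low genes is not resolved. In cac-1 the highest levels of the block were 1.61 ± 0.187 CPM per kb in NCU08261, 0.472 ± 0.133 in NCU08244 and 0.454 ± 0.683 in NCU08239, the last of which rests on 5 counts, 4 of them in 1 library.

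The median gene of the block stood at 0.377 CPM per kb in cac-1 suz-12 and 0.0365 CPM per kb in cac-1, where the median over the whole table was 11.9 CPM per kb in cac-1 suz-12 and 11.3 CPM per kb in cac-1. In rank among all genes the median of the block was at percentile 4.37 in cac-1 suz-12 and at percentile 1.63 in cac-1. After NCU08261 the block's next gene in cac-1 suz-12 was NCU08254, at percentile 32.9 of the table. In the block 2 genes (6.25%) had no count in any cac-1 suz-12 library, and 13 genes (40.6%) had none in any cac-1 library. Over the whole table the shares were 0.594% in cac-1 suz-12 and 1.23% in cac-1. The cac-1 suz-12 libraries were deeper in sum, with 72778768 counts against 54108834 in cac-1, which makes a count of 0 more likely in cac-1. Of the 73 low values in the block, from 1 to 20 counts, 86.3% were even, so counts were not read as single fragments and the counting intervals are too narrow.

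The left border was approached through genes with ordinary levels. Of the 10 genes of the left flank 9 were tested, and their median log2 change was -0.356. NCU08228, NCU08231 and NCU08232 were called lower, with log2 changes of -0.76 (SE 0.185), -0.53 (SE 0.146) and -0.76 (SE 0.188). NCU08229 (4707054 to 4708499, plus strand), the most abundant gene of the flank, was called higher, with 258, 208 and 345 CPM in cac-1 suz-12, against 185, 160.5 and 140.6 CPM in cac-1. NCU08226, NCU08227 and NCU08230 were not called, with log2 changes of 0.27, -0.37 and -0.36. Per kb these 7 genes ranked from percentile 30.0 to 92.25 in cac-1 suz-12 and from 28.4 to 88.5 in cac-1.

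Levels dropped over the last genes before the block. NCU08232 (4722173 to 4723762, plus strand) stood at 22.8, 19.9 and 22.0 CPM in cac-1 suz-12, against 29.5, 47.95 and 31.2 CPM in cac-1. NCU16701 (4725647 to 4726429, minus strand) stood at 2.08, 3.49 and 3.14 CPM in cac-1 suz-12, against 0.703, 0.889 and 1.76 CPM in cac-1. NCU16701 was called higher by 1.32 on the log2 scale (SE 0.391). It was no longer called without cac-1 replicate 1 or 2, at 1.15 and 1.11, or without cac-1 suz-12 replicate 2 or 3, at 1.15 and 1.26. NCU08233 (4726809 to 4727471, plus strand) stood at 1.06, 1.37 and 1.48 CPM in cac-1 suz-12 and 0.937, 0.533 and 1.02 CPM in cac-1, apart by a narrow margin, and was not called. NCU08234 (4732542 to 4733660, plus strand), the last gene before NCU08235, had 2, 7 and 4 counts in cac-1 suz-12 and 0, 2 and 0 in cac-1, too few to be tested. In CPM each of its cac-1 suz-12 libraries exceeded each cac-1 library, narrowly, at 0.0886 CPM against 0.0711 CPM where they came closest. Per kb, the mean levels were 13.6 in cac-1 suz-12 and 22.8 in cac-1 for NCU08232, and in the same strains 3.71 and 1.43 for NCU16701, 1.97 and 1.25 for NCU08233, and 0.168 and 0.0212 for NCU08234. The drop in level thus began before NCU08235 in both strains, and NCU16701 was the first gene of this stretch to be called higher.

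Some genes past NCU08263 also stood higher in cac-1 suz-12. NCU08264 (4820893 to 4822548, plus strand) begins 671 bp after it and had 4, 6 and 14 counts in cac-1 suz-12 and 0 in every cac-1 library. NCU08265 (4823696 to 4824538, plus strand) had 10, 15 and 10 counts in cac-1 suz-12, against 0, 0 and 6 in cac-1. Neither was tested, and in both each cac-1 suz-12 library exceeded each cac-1 library, as did 21.9% of genes over the whole table. NCU16705 (4825346 to 4825846, minus strand) had 40, 46 and 33 counts in cac-1 suz-12 and 4, 36 and 12 in cac-1. Its log2 change of 1.08 (SE 0.439) was not called. Without cac-1 replicate 2, its highest cac-1 library, the change was 1.73 and was called. NCU16706 had 2 counts in 1 library of each strain.

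After NCU16706 no gene of the table begins for 30104 bp, the largest gap of the window and one of the 6 largest of 1254 on the linkage group. Higher levels were found again on its far side. NCU08576 (4857482 to 4857922, plus strand) had 34, 50 and 29 counts in cac-1 suz-12 and 2, 2 and 4 in cac-1, a ratio of means of 10.1, and NCU08572 (4868987 to 4869940, minus strand) had 34, 40 and 40 in cac-1 suz-12 against 2, 8 and 2 in cac-1, a ratio of 8.58. Both were called higher, but like most tested genes of the block they passed the filter only through their cac-1 suz-12 libraries, which favours such a call. NCU08575, NCU16707, NCU08574 and NCU08573, which lie between them, had no count in cac-1 and at most 9 in any cac-1 suz-12 library. Of these only NCU08573 had counts in all 3 cac-1 suz-12 libraries, at 6, 4 and 5.

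Stepping over genes that were not tested, 15 tested neighbours in a row were higher by 2-fold or more, from NCU08235 to NCU08572, and 9.47% of all genes tested were higher by as much, with or without a call. The genes stepped over were 20 of the block and 7 of the right flank. Most of the 15 passed the filter only through their cac-1 suz-12 libraries, which favours higher values. Nothing is therefore read from the length of the run. At 1.5-fold the run had 17 tested genes and began at NCU16701. At 4-fold it had 12 and ran from NCU08235 to NCU08263, with NCU16705 as the gene that ended it. NCU08263 enters these runs by its fitted change, which has no firm size with 0 counts in cac-1; its lower bound is 2.05-fold. On the linkage group the 2-fold run went past the window to NCU08569. A 2-fold limit carried the run beyond the right end of the block and across the gap only by way of NCU16705, which was not called. Its log2 change of 1.08 fell to 0.91 without cac-1 replicate 1, 0.82 without cac-1 replicate 3 and 0.86 on library totals. These values are under the 2-fold limit, so the reach to the right is not firm. The run at 4-fold had the ends of the named block. As the block was chosen from these changes, that match is a description only.

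At the edges of the window the first gene inside was NCU08226, with a log2 change of 0.27 (SE 0.223), and the nearest outside was NCU08225, with 0.60 (SE 0.175). The last gene inside was NCU08572, with 3.04 (SE 0.555). The nearest outside was NCU08571, which was too low to be tested, with 8, 8 and 4 counts in cac-1 suz-12 and 2, 4 and 8 in cac-1.

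**Figure D4:**
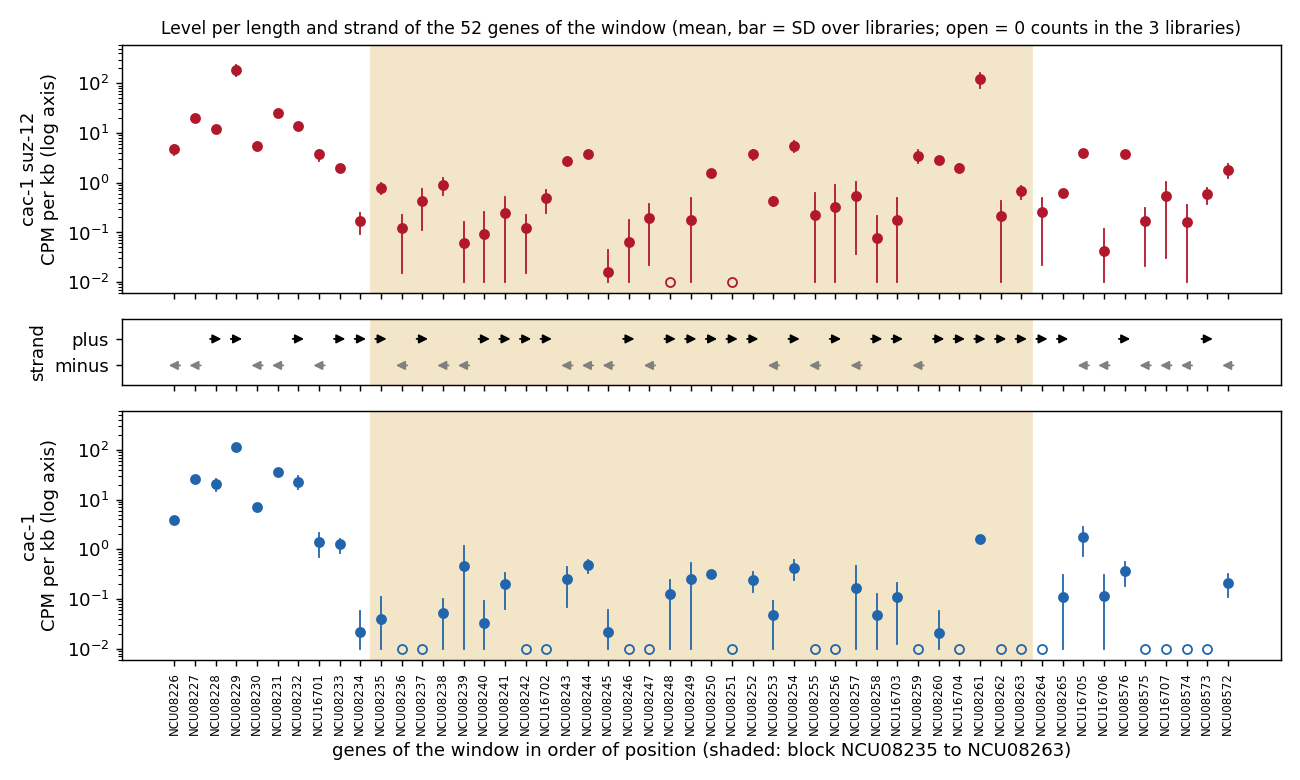
The level of each of the 52 genes is plotted in CPM per kb on a log axis in order of position, as mean and SD over 3 libraries, with cac-1 suz-12 above and cac-1 underneath, open symbols for 0 counts in all 3 libraries of a strain, lower bars ended at 0.01, and arrows for the strand between them. Levels of the left flank differ little between the panels beside those of the block, and most genes of the shaded block and the right flank have a higher mean in cac-1 suz-12. In 16 of the 32 block genes the libraries of the strains overlapped, with few counts in any library.

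The block spans 84296 bp and its last base lies 453 kb from the outermost counted base of the linkage group. It holds 21 genes on the plus and 11 on the minus strand (65.6% plus), against 50.5% plus over the whole table. Among its 31 neighbouring pairs 15 were in tandem, 8 divergent and 8 convergent. The tandem share was 48.4%, against 44.9% over the table. Counted within the block, the longest runs on one strand were the 5 plus-strand genes from NCU08248 to NCU08252 and the 5 from NCU08260 to NCU08263, which hold NCU08261. The second of these goes on past the block, since NCU08264 and NCU08265 are also on the plus strand. Of the 12 tested genes 8 were on the plus and 4 on the minus strand, and of the 20 others 13 and 7, so genes of either kind lay on both strands.

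Genes of the block were short. Their median counted length was 850 bp, from 270 bp in NCU08247 to 1986 bp in NCU08236, against 1480 bp in the left flank, 564 bp in the right flank and 1270 bp over the whole table. Within the block the tested genes had a median of 1098 bp and the others one of 585 bp, and a shorter gene collects fewer counts at the same level. The median gap between neighbours was 1453 bp in the block, 1884 bp in the left flank, 1056 bp in the right flank and 1294 bp over the table, and no genes of the window overlapped in the table. For 29 of the 32 genes (90.6%) the RefSeq gene model has the same span as the counted intervals, so no untranslated region is annotated outside them, against 3 of 10 in the left flank, 9 of 10 in the right flank and 17.2% of all matched genes.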

How the data were processed

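The authors deposited raw counts per gene in 1 table, which per the file headers has the layout of featureCounts output, with one coordinate-sorted alignment file per column, so that replicates were not pooled. The submitters' processing notes name Trim Galore 0.6.10, STAR 2.7.11, SAMtools 1.21, Subread 2.0.6, featureCounts and deepTools 3.5.5. The genome build and the strand setting of the counting are not given in the sources used here, so reads of overlapping or antisense genes may be shared. The counted length of each gene equalled the bases of its counted intervals for all 9757 genes and was a multiple of 3 for 98.8%, so lengths are coding lengths. A further 36 columns of counts belong to none of the labelled samples and stayed unused.

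Gene identifiers were matched to the RefSeq table of the NC12 assembly (9721 matched), which was used only for names, linkage groups, gene spans and neighbours. It gives no product names, so genes could not be grouped by product, and no sequences were used. The members and lists were chosen with earlier results of these data known. Named genes were all members between NCU08235 and NCU08263, the 5 nearest members on either side, other members called at 2-fold or more, the genes at the window's edges and the genes that check the strains. NCU08227, NCU08228, NCU08229, NCU08230, NCU08573, NCU08574, NCU08575, NCU16707 and the genes beyond the edges were added after their values were seen.

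Counts were fitted with edgeR 4.0.16 in R 4.3.3 (filterByExpr, TMM, robust quasi-likelihood, no replicate block), cac-1 suz-12 minus cac-1, over 9148 genes, with Benjamini-Hochberg adjustment. The standard error of a log2 change is its size over the square root of F. The fit was tested on simulated data. A fold against a gene with no cac-1 count is a bound at 3 counts in the shallowest cac-1 library. Intervals and bounds cover counting error only, and the labels describe no molecular identifiers. Alternatives were other scalings and filters, DESeq2 1.42.0, limma-voom (limma 3.58.1), fits without robust estimation, with a replicate block, on halved or thinned counts, and without each library.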

Additional observations from a re-analysis of the deposited data

How the results depend on the processing

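Depth is one limit, since 28 of 52 members were too low to be tested. The 16 members called higher and 3 called lower were 14 to 17 and 3 when 1 library was left out, and the block's 12 were 11 to 12, with none lower under any setting. NCU08263 was not tested without cac-1 suz-12 replicate 2. With counts halved, tried because most low counts were even, 14 members and 10 block genes were called higher, as NCU08238 and NCU08263 no longer passed the filter. Asking for at least 10 counts in every library, which removes genes silent in cac-1 by construction, left 2 members and 1 block gene called higher, a block median of 6.29 and a run of 1 gene. Thinning to the smallest library gave 10 and 7 called, a block median of 3.48 over fewer tested genes, and a run of 9. The right-flank value of 1.42 was then that of NCU16705 alone, which stood at 1.08 in the main fit. NCU08576 and NCU08572 no longer passed the filter there. With no filter the medians were 3.55, -0.045 (left flank) and 3.63 (right flank), and the run was 9, broken by genes with few counts. On library totals, which moved the median of all genes to -0.20, 5 members were called lower, with NCU08227 and NCU08230 added. The right-flank median, 3.04, rested on only 3 tested genes. It ran from 2.36 to 3.21 when 1 library was left out, with a tested set that changed in some of these fits. It was lowest without cac-1 replicate 2, where NCU16705, NCU08576 and NCU08572 stood at 1.73, 2.99 and 3.60. A further low gene had thus entered that median. At 2-fold or more 1038 of the 2569 genes called in the table remained. The log2 ratio of the summed block levels, 5.09, was 3.497 without NCU08261, a check added after the data were seen. The log2 change of NCU08235 was 3.20 without cac-1 replicate 2, and without replicate 3 it had no cac-1 count left, as NCU08260 had none without replicate 2. Without 1 library the summed log2 ratio ran from 4.95 to 5.31 and the run from 12 to 15 genes. For single genes 431 values were recomputed: 420 stayed on their side of the threshold, 7 lost a call, 4 gained one, and 0 changed sign. A gene that no longer passed the filter under a setting gave no value. Calls that ended in this way are therefore not among the 7. Replicate numbers were shared by the strains. Deviations of same-numbered libraries correlated at -0.015, 0.0972 and 0.173, and those of differently numbered ones at -0.187 to 0.111. These values do not settle whether same-numbered libraries are pairs. They were not taken as pairs, since the labels do not say that a number marks shared handling. With the replicate block 3009 genes were called, and 12 block genes were called higher. The cause was not tested where none is given.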

Other observations

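Genes beyond the window were looked at after the values were seen. On the left, NCU08222 (4680369 to 4682314, plus strand) had 297, 351 and 296 counts in cac-1 suz-12, against 2, 10 and 12 in cac-1, a ratio of means of 37.3, next to NCU08223 at 159.5 ± 17.1 CPM in cac-1 suz-12 and 61.0 ± 4.65 CPM in cac-1 (SD, n = 3 each). NCU10210 and NCU08213, farther left, were called higher by 3.59 and 2.63 on the log2 scale. NCU08222, NCU10210 and NCU08213 passed the filter only through their cac-1 suz-12 libraries, which favours a call of higher. NCU08223, also called higher, had ample counts in both strains. On the right, NCU08570 and NCU08569 were called higher by 1.75 and 1.405, NCU08569 having passed the filter only through its cac-1 suz-12 libraries, and NCU08568, at 159 ± 23.4 CPM in cac-1 suz-12 and 125 ± 11.1 CPM in cac-1 (SD, n = 3 each), was not called. The gene ro-11, farther right, had a log2 change of 0.28 and was not called. NCU08561, also on the right, was called lower, at -0.86. Of the other tested genes within 50 kb, NCU08216, NCU08221 and NCU08225 on the left were called higher. NCU08217, NCU08218 and NCU08224 on the left and NCU08565, NCU08564, scon-2 and NCU08560 on the right were not called. Over all genes tested 16.1% were called higher and 11.9% lower.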
